A study of Mus musculus with 4 samples.

Results

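The expression of 10 genes with which tuft cells sense chemicals and answer them was described across the cells of the mouse thymic stroma: *Trpm5*, *Gnat3*, *Gnb3*, *Plcb2*, *Rgs13*, *Avil*, *Dclk1*, *Pou2f3*, *Il25* and *Alox5ap*. They were chosen by symbol, and 10 of 10 were found among the 32285 genes of the count tables. Single-cell RNA-seq had been made from CD45- thymic cells, the fraction left when blood-derived cells are depleted, of 6-month-old C57BL/6 mice. Of the 4 libraries, 2 came from the Foxn1LacZ mock group, whose genotype is given as wild type (WT), and 2 from mutants homozygous for the LacZ allele (Z/Z), a hypomorphic allele of *Foxn1*, the transcription factor that thymic epithelial cells (TECs) need. All mice were untreated, and each library pooled 10 to 15 thymi. The sex is given as male in one label and as female in the protocol. The study used these mice to ask what loss of FOXN1 does to the epithelium, and here the question is where the 10 genes are expressed and whether their levels differ between the genotypes.

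Tuft cells are rare epithelial cells with a tuft of microvilli that use the taste pathway to sense their surroundings. A taste receptor activates a G protein whose alpha subunit, gustducin, is made by *Gnat3* and whose beta subunit is made by *Gnb3*. The G protein turns on phospholipase C beta, made by *Plcb2*, which releases calcium, and calcium opens the cation channel TRPM5. *Rgs13* encodes a regulator that shortens G protein signals. The cells answer with the cytokine IL-25, made by *Il25*, and with leukotrienes, whose synthesis needs the membrane protein made by *Alox5ap*. *Pou2f3* encodes the POU-domain transcription factor that tuft cells require, *Avil* encodes advillin, an actin-binding protein, and *Dclk1* encodes a microtubule-associated kinase that is widely used as a tuft cell marker. In the thymus, tuft cells are one of the medullary TEC types that resemble cells of other organs.

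Each library was a pool, so the 2 libraries of a genotype measure the spread between pools, and p-values refer to that spread. After filters, 1458 and 456 WT cells and 4455 and 3477 Z/Z cells were kept, of which 556 and 105 (WT 1, WT 2) and 1958 and 1543 (Z/Z 1, Z/Z 2) were TECs. The median number of unique molecular identifiers (UMIs, 1 per captured RNA molecule) per TEC was 16863.5 and 18795 in the WT libraries but 6747.5 and 7024 in the Z/Z libraries. The libraries also shared cell barcodes: 202 called barcodes were common to WT 1 and WT 2 and 249 to Z/Z 1 and Z/Z 2, against 0 to 6 for the other pairs of libraries. The smaller copy held a median of 3.24% and 1.78% of the UMIs of the larger one. Shared barcodes made up 54 of 556, 55 of 105, 147 of 1958 and 63 of 1543 TECs, so most comparisons of TECs between genotypes are also given without them. Comparisons of genotype differences between cell groups were not fitted without them. *Foxn1* itself reached 85.7, 117, 54.1 and 71.6 scaled CPM in the TECs of WT 1, WT 2, Z/Z 1 and Z/Z 2 (log2 fold change -0.68 ± 0.23 with its SE, edgeR adjusted p = 0.0840). The reads come from the 3' end of RNAs and need not lie in the altered part of the allele, so this level is no check of the labels.

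Coordinates are from GRCm38 with the GENCODE annotation. Of the members that the results turn on, *Gnat3* is at chr5:17962549-18019834 on the plus strand, *Plcb2* at chr2:118707517-118728438 on the minus strand, *Rgs13* at chr1:144138654-144177372 on the minus strand, *Pou2f3* at chr9:43123939-43210369 on the minus strand, *Dclk1* at chr3:55242364-55539068 on the plus strand and *Avil* at chr10:127000709-127020994 on the plus strand. The others are *Trpm5* at chr7:143069153-143094642 and *Gnb3* at chr6:124834240-124840275, both on the minus strand, and *Il25* at chr14:54932695-54935837 and *Alox5ap* at chr5:149264767-149288153, both on the plus strand. All 10 are protein-coding, and genes on the opposite strand overlap *Trpm5* (*Tssc4*), *Avil* (*Tsfm*), *Dclk1* (*Gm42609*, *Gm21954*) and *Alox5ap* (*Gm19719*). The 250 bases before the RefSeq start (GRCm38.p6) are shown for the members whose level in all TECs passed the test of genotype and whose promoter was in the reference table, with *Avil* for contrast, which was chosen after its sequence was seen. Capitals mark matches to 7 of the 8 bases of the octamer ATGCAAAT, the motif that POU factors of this family bind.
Gnat3, chr5:17962320-17962569, plus strand: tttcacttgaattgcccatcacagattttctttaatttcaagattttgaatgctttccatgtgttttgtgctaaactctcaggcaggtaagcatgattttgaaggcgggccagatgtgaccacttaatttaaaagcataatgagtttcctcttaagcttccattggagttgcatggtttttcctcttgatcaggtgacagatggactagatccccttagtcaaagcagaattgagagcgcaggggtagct
Plcb2, chr2:118728439-118728688, minus strand: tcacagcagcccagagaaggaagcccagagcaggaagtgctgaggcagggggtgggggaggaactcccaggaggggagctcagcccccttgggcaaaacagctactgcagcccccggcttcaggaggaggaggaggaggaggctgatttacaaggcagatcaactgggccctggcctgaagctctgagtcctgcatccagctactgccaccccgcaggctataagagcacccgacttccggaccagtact
Rgs13, chr1:144177373-144177622, minus strand: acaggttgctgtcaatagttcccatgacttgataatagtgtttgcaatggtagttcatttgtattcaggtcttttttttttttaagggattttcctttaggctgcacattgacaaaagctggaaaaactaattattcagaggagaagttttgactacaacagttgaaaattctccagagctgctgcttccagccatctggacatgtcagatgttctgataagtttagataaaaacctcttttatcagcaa
Avil, chr10:127000459-127000708, plus strand: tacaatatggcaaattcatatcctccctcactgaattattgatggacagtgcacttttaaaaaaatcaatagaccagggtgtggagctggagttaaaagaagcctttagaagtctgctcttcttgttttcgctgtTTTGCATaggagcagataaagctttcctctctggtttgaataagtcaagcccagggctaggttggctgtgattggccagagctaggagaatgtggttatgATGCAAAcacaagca

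The octamer and its overlapping 7-base forms, ATGCAAA and TGCAAAT, were searched on both strands. None of them is in the windows of *Gnat3*, *Plcb2*, *Rgs13* and *Trpm5* or in the 2 windows held for *Dclk1*, which says only that these letters are not there. *Avil* holds ATGCAAA 15 bases before its start and the reverse complement TTTGCAT 115 bases before it. Among 32851 promoter windows, 1.60% held the octamer, 4.12% the form ATGCAAA and 3.56% the form TGCAAAT.

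TECs were clustered without the 10 genes, their pathway partners or any marker gene, and one cluster of 75 cells carried tuft markers that are not members. *Bmx*, a kinase gene, was detected in 96.0% of its cells, the adapter genes *Sh2d6* and *Sh2d7* in 78.7% and 73.3%, the adhesion gene *L1cam* in 65.3% and the transcription factor gene *Gfi1b* in 22.7%. In the other TECs these shares were 0.465% to 4.55%. *Epcam*, which marks epithelium, was found in 96.0% of the cells and *Ptprc*, the gene of CD45, in 13.3%, against 10.6% of other TECs. The cluster is called tuft-like below, and it held 39, 7, 7 and 22 cells of WT 1, WT 2, Z/Z 1 and Z/Z 2. At clustering resolutions of 0.5 and 2 in place of 1 the numbers were the same.

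All 10 members had their highest level in the tuft-like cluster among the 15 TEC clusters. Levels are CPM values, the UMIs of a gene in the summed cells of a group scaled to a common total of UMIs, and the map of levels by cluster shows them for the pooled libraries. *Gnat3* averaged 1177 ± 349 CPM (SD over 4 libraries) in tuft-like cells, and its next cluster, the mTEC2-like cells (medullary TECs with *Aire*), reached 3.98 ± 7.50 CPM. *Plcb2* was at 362 ± 48.7 CPM against 3.89 ± 3.74 CPM in mTEC2-like cells, and *Rgs13* at 1198 ± 168 against 4.27 ± 7.70 CPM. The spread over libraries in every runner-up cluster of these 3 genes was as wide as, or close to, the level itself, so the order below the tuft-like cells could not be told apart. *Trpm5* (587 ± 155 CPM), *Gnb3* (476 ± 136 CPM), *Alox5ap* (550 ± 222 CPM) and *Il25* (172 ± 143 CPM) had averages of at most 15.8 CPM in any other cluster. For *Trpm5*, *Gnb3* and *Alox5ap* that cluster was the 21 neuro-like cells, and the neuro-like *Trpm5* level rested on 10 UMIs of 1 cell.

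**Figure D1:**
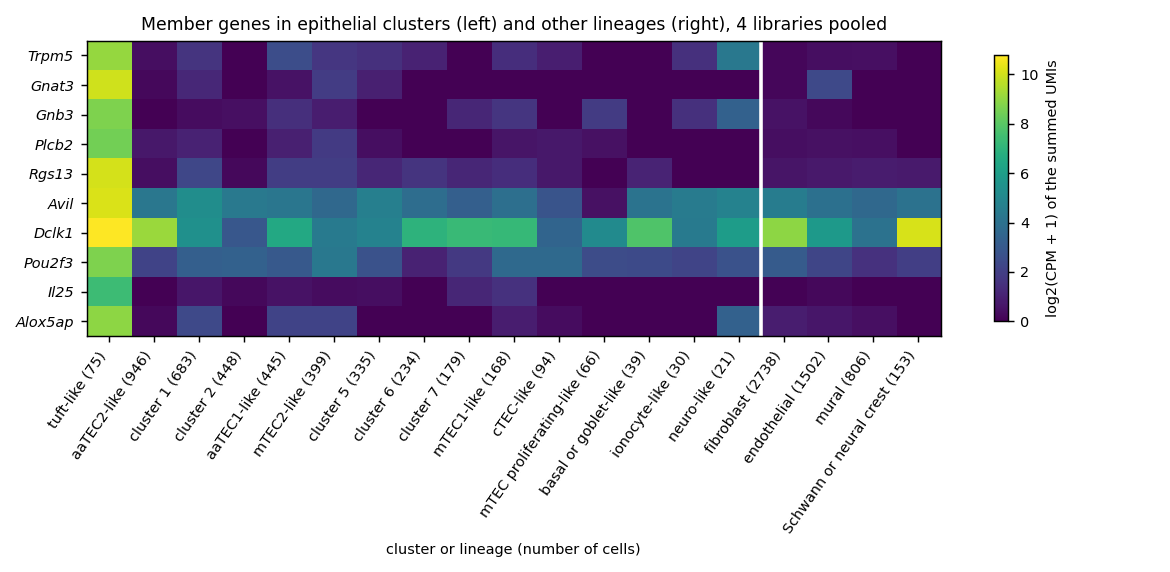
Level of each gene (rows) as log2(CPM + 1) of summed UMIs in each TEC cluster and, right of the white line, in 4 other lineages (columns, with the number of cells), for 4 libraries pooled. The tuft-like column is brightest for every gene among TEC clusters, and *Dclk1* is also bright in aaTEC2-like cells, fibroblasts and Schwann or neural crest cells.

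*Avil*, *Pou2f3* and *Dclk1* were not limited to that cluster. *Avil* averaged 1217 ± 378 CPM in tuft-like cells, and 14 other clusters averaged 0.437 to 25.3 CPM. Fibroblasts held 17.3, 21.4, 22.4 and 26.6 CPM of *Avil* and endothelial cells 14.2 to 15.8 CPM, so no other TEC cluster averaged above the highest fibroblast library. *Pou2f3* averaged 419 ± 192 CPM in tuft-like cells, followed by mTEC2-like (16.1 ± 6.73 CPM), cTEC-like (cortical TECs, 13.4 ± 2.60 CPM) and mTEC1-like cells (medullary TECs with *Ccl21a*, 13.3 ± 8.44 CPM). These 3 did not differ beyond their spread, and the lowest, 1 unnamed cluster, averaged 0.380 CPM.

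*Dclk1* averaged 1812 ± 810 CPM in tuft-like cells and 621 ± 104 CPM (3 libraries) in aaTEC2-like cells (age-associated TECs in the study's naming), TECs with *Nos1*, *Pdpn* and *Vim* and little *Epcam*. Outside the epithelium, fibroblasts held 686, 665, 350 and 404 CPM of *Dclk1* in WT 1, WT 2, Z/Z 1 and Z/Z 2. The Schwann or neural crest cells, which were found in the Z/Z libraries only, held 1162 and 856 CPM. Endothelial cells were at 44.6 to 76.9 CPM. In the plot of *Dclk1* by cluster, tuft-like cells lead the epithelium in every library, but the Z/Z 1 Schwann or neural crest cells lie above the WT 2 tuft-like cells (813 CPM), so by *Dclk1* alone the 2 cell types overlap.

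**Figure D2:**
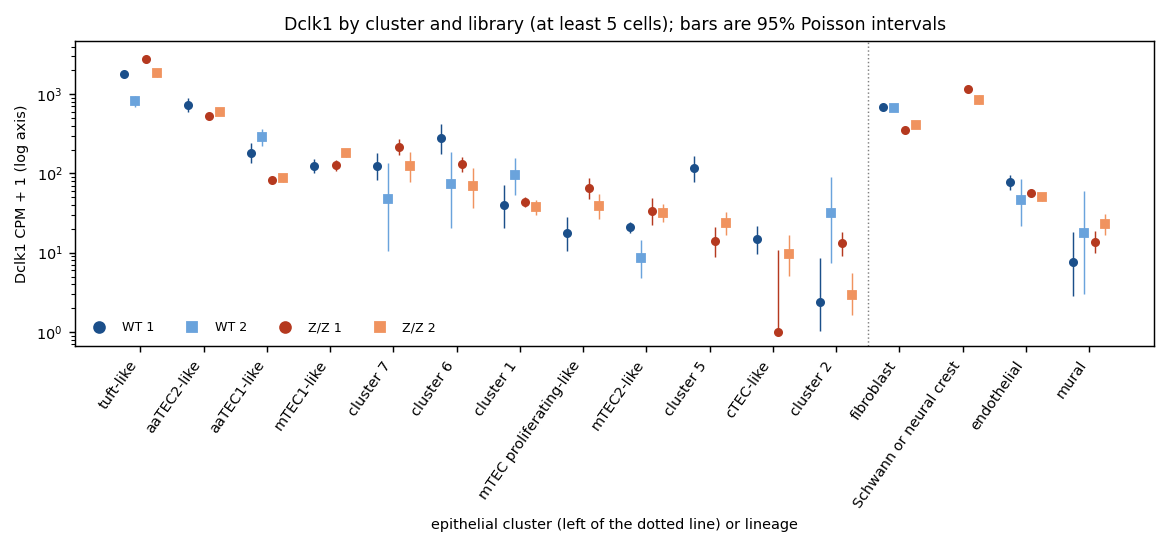
*Dclk1* level (CPM + 1, log axis) in each library with at least 5 cells of a TEC cluster, left of the dotted line, or of another lineage, right of it; points are sums over cells and bars are 95% Poisson intervals of the counts. Tuft-like cells lie at 813 to 2797 CPM, aaTEC2-like cells at 532 to 736 CPM and fibroblasts at 350 to 686 CPM.

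Over 40 sums of a TEC cluster in a library (at least 10 cells each, clusters of one library sharing its depth), the members' log2(CPM + 1) values followed each other to different degrees. Pearson's r of a member with the mean of the other 9 was 0.963 for *Gnat3*, 0.957 for *Alox5ap*, 0.945 for *Plcb2*, 0.944 for *Rgs13*, 0.933 for *Il25*, 0.918 for *Trpm5* and 0.884 for *Gnb3*. It was 0.727 for *Avil*, 0.659 for *Pou2f3* and 0.398 for *Dclk1*. These values describe the points and were not tested. The genes outside the list with the highest r to the mean of all 10 were *Ovol3* (0.956), *Srpx2* and *Chat* (0.9504 and 0.9503), *Gm4952* (0.948), *Gm50061* (0.946), *Ly6g6f* (0.932), *Bmx* (0.910), *Pik3cg* (0.909), *A630073D07Rik* (0.908), *Sh2d7* (0.904), *Gm33680* (0.895) and *Slitrk6* (0.894). *Chat* encodes the enzyme that makes acetylcholine, and *Pik3cg* a kinase subunit that G proteins activate.

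Not every tuft-like cell yielded every member. With all UMIs, *Trpm5* was detected in 94.7% of the 75 cells, *Avil* in 93.3%, *Rgs13* in 89.3%, *Dclk1* in 86.7%, *Pou2f3* in 81.3%, *Plcb2* in 78.7%, *Alox5ap* in 65.3%, *Gnb3* in 49.3%, *Gnat3* in 48.0% and *Il25* in 40.0%. Thinned to 2000 UMIs a cell, which makes depths equal, the shares ran from 80.8% (*Avil*, *Dclk1*) to 23.3% (*Il25*), with *Gnat3* at 35.6%. A tuft-like cell held a median of 7 of the 10 members (range 2 to 10). By library, *Gnat3* was found in 38.5%, 71.4%, 71.4% and 50.0% of the tuft-like cells of WT 1, WT 2, Z/Z 1 and Z/Z 2, so the WT libraries lay at both ends.

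The members were not used in the clustering, and their co-detection was largely limited to the tuft-like cluster. After thinning, 69 of 73 tuft-like cells had a UMI of at least 3 members, against 5 of 3985 other TECs, all 5 in Z/Z 2 (2 aaTEC1-like, 1 mTEC1-like, 1 mTEC2-like and 1 unnamed cluster). Of the 3985 other TECs, 3079 held none of the members and 863 held 1. Tuft-like cells were 7.01% (95% Clopper-Pearson interval 5.04 to 9.46) and 6.67% (2.72 to 13.3) of TECs in WT 1 and WT 2 and 0.358% (0.144 to 0.735) and 1.43% (0.896 to 2.15) in Z/Z 1 and Z/Z 2. The share of TECs with at least 3 members was 6.20%, 6.67%, 0.364% and 1.75%, a mean difference of -5.38 percentage points (exact permutation test, two-sided, p = 0.333, the smallest that 2 against 2 libraries allow). The WT and Z/Z libraries did not overlap for either share, and without shared barcodes the second was 6.20%, 6.00%, 0.394% and 1.82%. Intervals cover counting error only.

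The clusters that held a member's UMIs differed between genotypes, as the stacked shares by cluster show. In the WT libraries, 99.1% and 100% of the *Gnat3* UMIs of TECs lay in tuft-like cells, and 97.6% and 83.7% in the Z/Z libraries. For *Trpm5* the WT shares were 98.7% and 97.6% and the Z/Z shares 81.4% and 62.5%, and for *Rgs13* 98.8%, 99.5%, 88.9% and 75.9%. These taste genes thus stayed mostly in the tuft-like cells in all 4 libraries. *Pou2f3* went from 55.02% and 76.6% in WT to 14.5% and 31.5% in Z/Z, and *Avil* from 84.6% and 91.3% to 19.8% and 41.5%. *Dclk1* went from 68.7% and 47.8% to 7.73% and 13.6%, while aaTEC2-like cells held 5.35% and 0% of its TEC UMIs in the WT libraries and 57.6% and 50.2% in the Z/Z libraries. Those cells were 2.16% and 0% of TECs in WT 1 and WT 2 and 28.2% and 24.8% in Z/Z 1 and Z/Z 2.

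**Figure D3:**
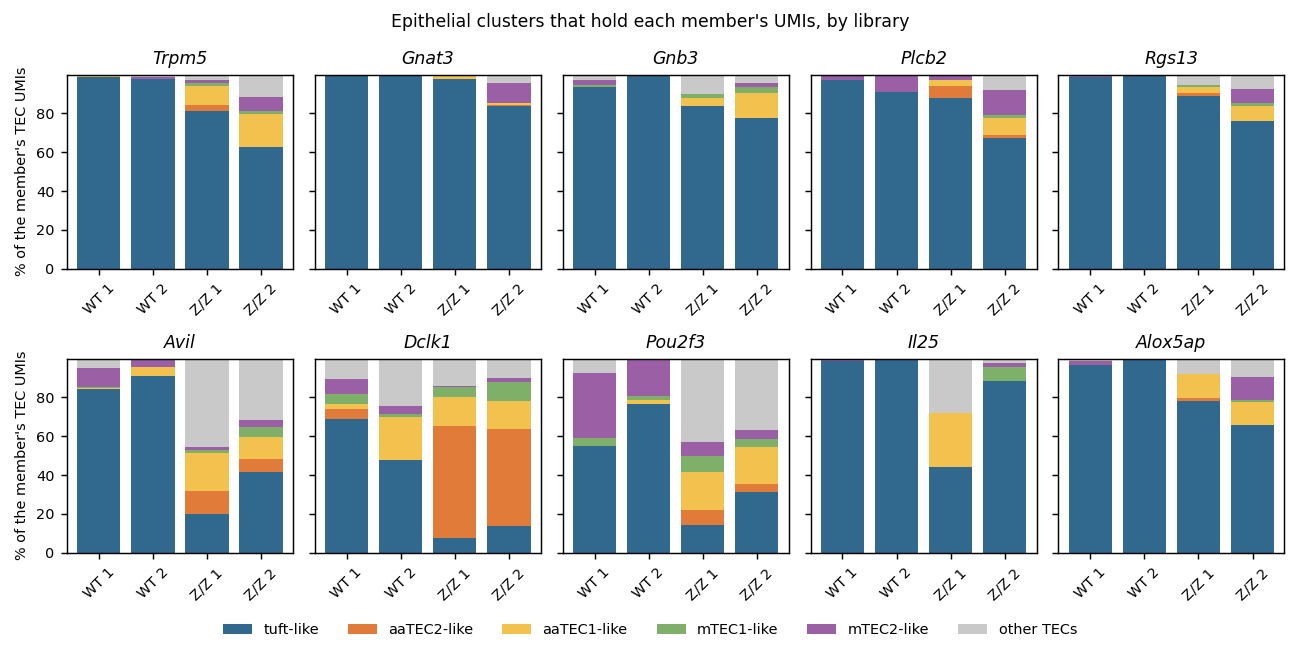
Share (%) of each gene's UMIs in TECs that lies in tuft-like cells (blue), in 4 other named clusters or in the remaining TECs (grey), for each library. Blue fills 91.2% to 100% of the WT bars of *Trpm5*, *Gnat3*, *Gnb3*, *Plcb2*, *Rgs13*, *Il25* and *Alox5ap*, and less than 20% of the Z/Z bars of *Dclk1*, whose orange aaTEC2-like part is over 50%.

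UMIs were then summed over all TECs of a library and compared between genotypes (edgeR quasi-likelihood test, two-sided, Benjamini-Hochberg adjustment over 18888 genes). In such sums, fewer cells of a type and less RNA per cell cannot be told apart. Of all genes tested 22.4% were called, 12% lower and 10.4% higher in Z/Z. Of the 10 members 4 were called, all lower in Z/Z: *Gnat3*, *Plcb2*, *Rgs13* and *Pou2f3*. The median log2 fold change of the 10 was -1.78, beside 0.00 for all genes tested, and 9 of 10 were negative.

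Among the signalling genes, *Gnat3*, the gustducin alpha subunit, was at 42.4 and 101 CPM in the WT TECs and at 5.49 and 12.2 CPM in the Z/Z TECs. The 2 groups did not overlap, and the log2 fold change was -2.81 ± 0.57 (SE, adjusted p = 0.0256). *Plcb2*, the phospholipase, was at 18.2 and 29.9 CPM in WT and at 1.45 and 5.63 CPM in Z/Z (log2 fold change -2.56 ± 0.67 with its SE, adjusted p = 0.0475). *Rgs13*, the G protein regulator, was at 50.3 and 75.2 CPM in WT and at 6.32 and 17.5 CPM in Z/Z (log2 fold change -2.20 ± 0.51 with its SE, adjusted p = 0.0364). In each of these genes Z/Z 1 was lowest and Z/Z 2 second, and WT 2 was above WT 1. Tuft-like shares were 0.358% and 1.43% in Z/Z 1 and Z/Z 2. In WT 1 and WT 2 they were 7.01% and 6.67%, with intervals that overlap. A link between these levels and the shares was not tested.

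*Gnb3*, the beta subunit, was at 16.8, 41.1, 2.20 and 6.79 CPM in WT 1, WT 2, Z/Z 1 and Z/Z 2, and its log2 fold change of -2.47 ± 0.68 just missed the threshold (adjusted p = 0.0532). *Trpm5*, the channel, was at 23.4, 31.4, 3.07 and 13.6 CPM, without overlap between the groups, and its log2 fold change was -1.52 ± 0.67 (adjusted p = 0.161).

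*Pou2f3*, the transcription factor, was at 33.8 and 57.6 CPM in WT and at 6.98 and 12.3 CPM in Z/Z (log2 fold change -2.04 ± 0.39, adjusted p = 0.0232), the smallest adjusted p of the members. Of the products, *Il25* was at 6.28, 5.98, 0.790 and 4.66 CPM (-0.99 ± 0.81, adjusted p = 0.415) and *Alox5ap* at 21.9, 20.2, 3.42 and 13.0 CPM (-1.18 ± 0.61, adjusted p = 0.215). For both, WT and Z/Z did not overlap, but Z/Z 2 lay near the WT libraries. *Avil* was at 57.9, 85.6, 18.8 and 45.02 CPM (-0.97 ± 0.44, adjusted p = 0.1701). *Dclk1* was the only member with a positive value, at 133, 108, 147 and 145 CPM (0.46 ± 0.15, adjusted p = 0.0815).

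These calls depended on single libraries and on the shared barcodes. TECs with shared barcodes held many UMIs, with medians of 62298, 37058, 44715 and 62495 in WT 1, WT 2, Z/Z 1 and Z/Z 2. The medians of other TECs were 15872.5, 8189.5, 6364 and 6991. Of the shared TECs, 34 of 54, 55 of 55, 144 of 147 and 38 of 63 were the copy with most UMIs. Leaving them out thus also removes deep cells, and the part of that in the lost calls was not tested. With shared barcodes left out, 0 of the 10 members were called, and 1 gene of all those tested. *Gnat3* then had a log2 fold change of -1.77 (adjusted p = 0.111), *Rgs13* -2.07 (0.0999), *Plcb2* -1.70 (0.209) and *Pou2f3* -1.26 (0.298). With each shared barcode kept once, in the library where it had most UMIs, the same 4 were called. Without Z/Z 1, 0 members were called, and without WT 2 the called members were *Gnat3* and *Pou2f3*. Without Z/Z 2, *Gnat3* was not called (adjusted p = 0.0556) while *Trpm5* and *Alox5ap* were.

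The level within tuft-like cells answers a different question, whether each RNA is a smaller part of the summed UMIs of Z/Z tuft-like cells. The amount of RNA per cell was not measured. Median UMIs per tuft-like cell were 7714, 30593, 13756 and 5639.5 in WT 1, WT 2, Z/Z 1 and Z/Z 2, and deep cells weigh more in these sums. No member was called there: edgeR called 0 of 4057 genes (0%), 352 had an unadjusted p under 0.05, and DESeq2 called 19 genes, none of them members. *Trpm5* was at 455 and 483 CPM in WT 1 and WT 2 and at 618 and 793 CPM in Z/Z 1 and Z/Z 2. *Gnat3* was at 831, 1596, 1323 and 957 CPM, with both Z/Z values between the WT values. *Plcb2* was at 349, 430, 314 and 354 CPM, and *Rgs13* at 983, 1178, 1388 and 1242 CPM. For *Trpm5* and *Rgs13* the Z/Z tuft-like cells were above both WT libraries, and for *Gnat3* and *Plcb2* the groups overlapped. The log2 fold changes of the 4 were 0.62 ± 0.35, -0.06 ± 0.42, -0.18 ± 0.36 and 0.31 ± 0.33 (SE), with adjusted p of 0.663 to 0.995.

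For the other members the tuft-like level ranged from a log2 fold change of -0.74 ± 0.44 (*Pou2f3*, adjusted p = 0.678) to 1.19 ± 0.60 (*Il25*, adjusted p = 0.635). *Il25* was at 123 and 94.2 CPM in WT and at 86.7 and 385 CPM in Z/Z, so 1 library, Z/Z 2, made the difference, and without it the value was -0.30. *Alox5ap* was at 418, 318, 661 and 803 CPM, and its log2 fold change of 1.01 ± 0.36 was the only one among members with an unadjusted p under 0.05. Its edgeR adjusted p was 0.517. *Dclk1* was at 1802, 813, 2797 and 1836 CPM. The tuft-like cells of Z/Z 1, where *Dclk1* was highest, also carried 965 CPM of 6 summed fibroblast markers (of which 1 was in at least 20% of tuft-like cells), against 32.1, 35.3 and 95.2 CPM in WT 1, WT 2 and Z/Z 2, and the part of these in the *Dclk1* level was not tested. With shared barcodes left out, 0 members were called in tuft-like cells as well. That fit can say little, because shared barcodes made up 3 of 39, 4 of 7, 0 of 7 and 0 of 22 tuft-like cells. WT 2 then fell below the minimum of 5 tuft-like cells per library that was set for the test. A difference that misses the threshold with 7 cells in a library does not show equal levels. The genotype difference itself was compared between tuft-like cells and other TECs, and 0 of 10 members differed (edgeR, 13031 genes tested, 1.78% called).

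**Figure D4:**
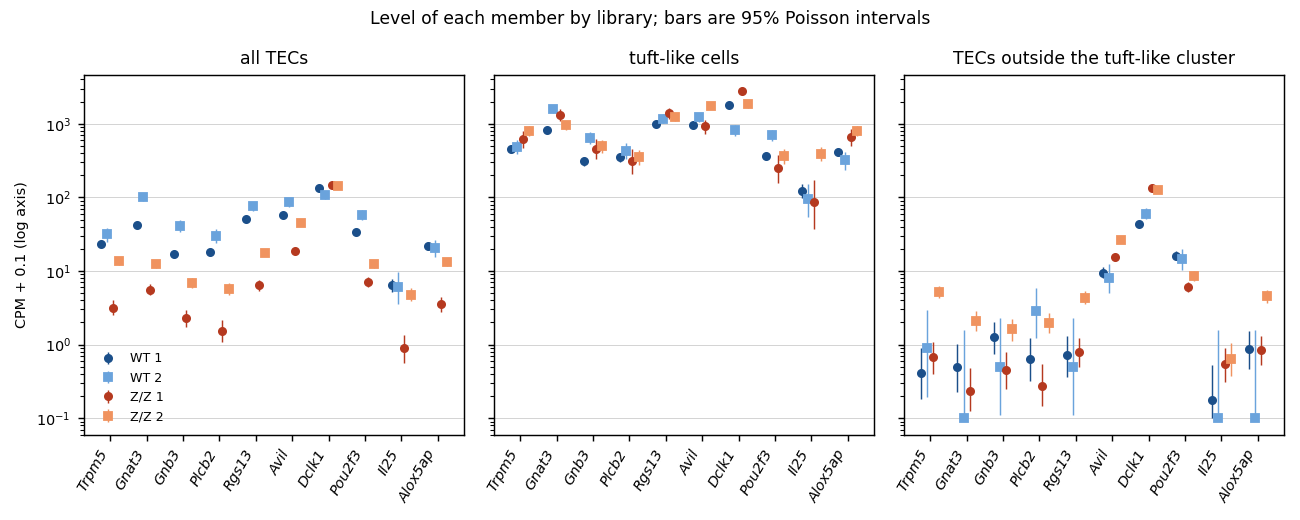
Level (CPM + 0.1, log axis) of each gene in all TECs (left), tuft-like cells (middle) and TECs outside the tuft-like cluster (right), 1 point per library, with 95% Poisson intervals. In all TECs the WT points (blue) lie above the Z/Z points (red and orange) for every gene but *Dclk1*; in tuft-like cells they overlap or lie close.

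TECs outside the tuft-like cluster showed another pattern. Of 18798 genes tested there, 21.5% were called, 9.75% higher in Z/Z. Of the 8 members that passed the filter on low counts 2 were called, *Dclk1* and *Avil*, both higher in Z/Z, while *Gnat3* and *Il25* were too low to test. *Dclk1* was at 43.7 and 60.3 CPM in WT and at 136 and 127 CPM in Z/Z, without overlap (log2 fold change 1.52 ± 0.20 with its SE, adjusted p = 0.00982). *Avil* was at 9.42 and 7.98 CPM in WT and at 15.2 and 26.6 CPM in Z/Z (1.41 ± 0.35, adjusted p = 0.0413). *Pou2f3* was at 16.03 and 14.4 CPM in WT and at 6.00 and 8.53 CPM in Z/Z (-0.90 ± 0.29, adjusted p = 0.0818). Of the 8 members tested outside the cluster, 6 had a positive log2 fold change and 2 a negative one. Their median was 1.47, beside -0.002 for all genes tested. Without Z/Z 2, 7 members passed the filter, 4 positive and 3 negative, with a median of 0.490. That library held 105 of the 124 *Trpm5* UMIs of these cells. In all TECs, which include the tuft-like cells, 9 of 10 members had a negative log2 fold change.

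The *Dclk1* difference went with the aaTEC2-like cells. Without that cluster its log2 fold change among the remaining TECs was 0.51 (adjusted p = 0.224), and in the sum of all TECs it turned to -0.41. Within aaTEC2-like cells, *Dclk1* was at 736 CPM in the 12 cells of WT 1 and at 532 and 594 CPM in the 552 and 382 cells of Z/Z 1 and Z/Z 2; WT 2 had none. Within aaTEC1-like cells (TECs with *Cldn3* and *Otog*) it was at 181 and 283 CPM in WT and at 81.9 and 85.8 CPM in Z/Z, from 14, 9, 246 and 176 cells. In both clusters *Dclk1* was lower in each Z/Z library than in each WT library that held cells, which was not tested. *Avil* kept its value without aaTEC2-like cells (1.41, adjusted p = 0.0439). With shared barcodes left out, neither gene was called outside the tuft-like cluster (*Dclk1* 1.01, adjusted p = 0.293, and *Avil* 1.40, adjusted p = 0.177). With each shared barcode kept once, both genes were called there. Without Z/Z 1 neither gene was called (*Dclk1* adjusted p = 0.0532), and *Avil* was not called when any 1 of the 4 libraries was left out (adjusted p 0.0557 to 0.195).

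**Figure D5:**
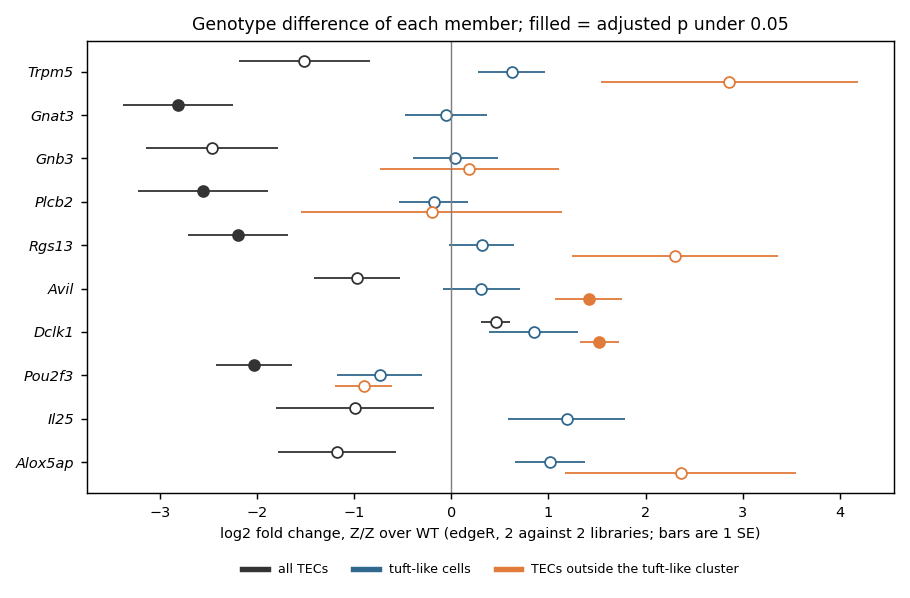
Log2 fold change of Z/Z over WT for each gene (edgeR, 2 against 2 libraries; bars are 1 SE) in all TECs (black), tuft-like cells (blue) and TECs outside the tuft-like cluster (orange); filled points have an adjusted p under 0.05. Filled black points are *Gnat3*, *Plcb2*, *Rgs13* and *Pou2f3*, filled orange points are *Avil* and *Dclk1*, and no blue point is filled.

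Free RNA in the droplets bears on these low levels. In droplets with at most 100 UMIs, which hold RNA but no called cell, *Trpm5* was at 9.04, 3.91, 1.06 and 8.83 CPM in WT 1, WT 2, Z/Z 1 and Z/Z 2, and in TECs outside the tuft-like cluster at 0.311, 0.798, 0.573 and 5.15 CPM. *Gnat3*, *Gnb3*, *Plcb2*, *Rgs13* and *Alox5ap* were likewise lower in those TECs than in the empty droplets of the same library, in all 4 libraries. *Il25* was lower too, except in Z/Z 1 (0.441 CPM against 0). *Pou2f3*, at 16.03, 14.4, 6.00 and 8.53 CPM in those TECs, was above the empty droplets in WT (12.4 and 7.81 CPM). In Z/Z it was below them (6.70 and 11.35 CPM). *Avil* was below the empty droplets in WT (27.6 and 19.5 CPM) and above them in Z/Z (11.6 and 20.2 CPM), as was *Dclk1* (135, 88.7, 127 and 97.8 CPM in empty droplets). The empty-droplet profile was also subtracted, at an assumed 10% of the UMIs of each sum. With that, *Dclk1* and *Avil* were still called outside the tuft-like cluster (1.74 and 1.75), and *Gnat3*, *Rgs13* and *Pou2f3* in all TECs. The true share of free RNA was not estimated, so these calls hold for that share only.

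Shares of TECs with a UMI, at 2000 UMIs a cell, gave the same order of genotypes for 8 members. *Pou2f3* was found in 6.02% and 5.71% of TECs in WT and in 1.04% and 1.96% in Z/Z, and in fibroblasts, a lineage outside the epithelium, in 0.678%, 0.524%, 1.90% and 1.49%. The Z/Z share was thus at or near that of fibroblasts. *Trpm5* was found in 4.38%, 6.67%, 0.468% and 1.62% of TECs, and in at most 0.136% of fibroblasts in any library. *Avil* was found in 6.20%, 6.67%, 3.69% and 7.35% of TECs and in 3.56% to 5.24% of fibroblasts, and *Dclk1* in 13.1%, 16.2%, 20.1% and 19.3% of TECs and in 39.04% to 59.2% of fibroblasts. The exact two-sided permutation p was 0.333 for 9 members and 1 for *Avil*. Without thinning the shares were higher, for example 17.8%, 17.1%, 5.16% and 8.62% for *Pou2f3*, in libraries that differed in depth.

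Outside the epithelium, the *Dclk1* difference of fibroblasts had the opposite sign to that of the TEC sums outside the tuft-like cluster. Within aaTEC1-like and aaTEC2-like cells, as given above, it had the same sign as in fibroblasts, which was not tested. Fibroblasts of WT 1 and WT 2 held 686 and 665 CPM and those of Z/Z 1 and Z/Z 2 350 and 404 CPM (log2 fold change -0.76 ± 0.17 with its SE, adjusted p = 0.0430, 3% of 13878 genes called, 1.26% lower), and 1 of the 3 members tested was called. That call was lost when any 1 of the 4 libraries was left out (adjusted p 0.157 to 0.243). *Pou2f3* in fibroblasts was at 3.74, 5.84, 10.9 and 7.13 CPM (log2 fold change 1.07 ± 0.36, adjusted p = 0.155). The genotype differences of TECs outside the tuft-like cluster and of fibroblasts differed from each other for *Dclk1*, by 2.26 ± 0.25 (SE, adjusted p = 0.00146), and for *Pou2f3*, by -2.06 ± 0.49 (adjusted p = 0.0299), with 11% of 18352 genes called in that comparison. In endothelial cells no member was called (0 of 3 tested; edgeR called 1.86% of 11360 genes, 0.933% higher and 0.924% lower; 1 member had an unadjusted p under 0.05, and DESeq2 called none). That member was *Gnat3*, with 1, 0, 23 and 27 UMIs in 110, 25, 696 and 671 cells (adjusted p = 0.273). These are 0.986, 0, 4.02 and 5.01 CPM, beside 16.2, 6.14, 3.53 and 3.78 CPM in the empty droplets of the same libraries. The endothelial level was thus below that of free RNA in both WT libraries and above it in both Z/Z libraries. Fibroblasts held 0.330, 0, 0.151 and 0 CPM of *Gnat3* in WT 1, WT 2, Z/Z 1 and Z/Z 2. The part of free RNA in the endothelial level was not tested.

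The partners of the members in taste signalling were read from a list of 25 genes, of which 13 passed the filter in all TECs. Of these 4 were called lower in Z/Z and 0 higher, beside 12% and 10.4% of all genes (median log2 fold change -0.89, beside 0.00 for all genes). With shared barcodes left out, 0 genes of this list were called, beside 1 gene of all those tested. *Rgs21*, another regulator of G protein signals known from taste cells, had 206 and 79 UMIs in WT 1 and WT 2 tuft-like cells, against 1 and 0 UMIs in those of Z/Z 1 and Z/Z 2. It was seen in 10 of 39 and 3 of 7 tuft-like cells in WT and in 1 of 7 and 0 of 22 in Z/Z, where 0 of 22 allows a share of up to 13.6% (3 counts) of cells with a UMI. Cells without a UMI can still express the gene. In all TECs its adjusted p was 0.00805 and in tuft-like cells 0.116. The others were the taste receptor genes *Tas1r1* (log2 fold change -4.26, adjusted p = 0.0339) and *Tas1r3* (-2.40, adjusted p = 0.0490) and the calcium channel gene *Itpr3* (-0.89, adjusted p = 0.0422). *Tas1r1* lay mostly outside the tuft-like cells, at 9.57 and 31.5 CPM in other WT TECs. *Gng13*, the gamma subunit that pairs with *Gnb3*, was at 1221 and 1119 CPM in WT tuft-like cells and at 2862 and 2308 CPM in Z/Z (log2 fold change 1.17 ± 0.33, adjusted p = 0.423, not called).

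Of the 12 eicosanoid genes, which include the leukotriene partners of *Alox5ap*, 11 were tested, 5 were called lower in Z/Z TECs and 0 higher (median -1.62), beside 12% and 10.4% of all genes, and 0 were called with shared barcodes left out. The 5 lower genes were *Ptgs2* (log2 fold change -3.13, adjusted p = 0.00647), *Hpgds*, the prostaglandin D synthase (-2.27, 0.00805), *Pla2g4a*, the phospholipase that frees arachidonic acid (-2.57, 0.00805), the leukotriene receptor gene *Cysltr2* (-1.86, 0.00805) and *Ptges* (-0.86, 0.0261). All 5 were called lower in TECs outside the tuft-like cluster too, where 11.7% of all genes were lower, for example *Ptgs2* at 186 and 268 CPM in WT and 23.3 and 19.8 CPM in Z/Z. In those cells 6 summed mTEC2 markers were at 1732, 2019, 202 and 445 CPM in WT 1, WT 2, Z/Z 1 and Z/Z 2, and mTEC2-like cells were 45.7%, 42.9%, 1.94% and 4.02% of TECs. Summed myeloid or mast cell markers (6 genes, 0 of them in at least 20% of the cells) were at 278, 674, 55.02 and 90.1 CPM, and the part of either in the eicosanoid values was not tested. In tuft-like cells *Hpgds* was at 365 and 424 CPM in WT and 531 and 317 CPM in Z/Z (log2 fold change 0.12 ± 0.40, adjusted p = 0.970), and *Alox5*, the enzyme that works with the *Alox5ap* protein, at 337, 348, 260 and 426 CPM.

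Of the 12 genes of the type 2 cytokine axis that IL-25 belongs to, 12 were tested, 4 were called lower and 3 higher (median -2.02), beside 12% and 10.4% of all genes, and 0 with shared barcodes left out. Lower were *Il13* (-3.41), *Il4* (-2.53), *Il2rg* (-2.27) and *Il17rb*, the IL-25 receptor gene (-1.81, adjusted p = 0.0308). *Il13* and *Il4* had 0 UMIs in tuft-like cells, and the myeloid or mast cell and mTEC2 markers given above were lower in both Z/Z libraries too, whose part in these values was not tested. *Il33* (2.15), *Il17ra* (1.29), whose product is a chain of both the IL-17 and the IL-25 receptor, and *Il13ra1* (0.50) were higher. *Il17rb* was at 102, 118, 97.6 and 154 CPM in the tuft-like cells of WT 1, WT 2, Z/Z 1 and Z/Z 2.

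Of 28 tuft regulator and structural genes 26 were in the count tables and 25 were tested, of which 7 were called lower and 3 higher in Z/Z TECs (median -1.07), beside 12% and 10.4% of all genes, and 0 with shared barcodes left out. The smallest p-values were those of *Mctp1* (-2.90), *Notch1* (1.23), *Spib*, a transcription factor gene (-1.40), *Krt23* (-2.71), *Krt18* (1.503) and *Cd24a* (0.69). *Mctp1* was in all tuft-like cells, at 8228 and 9848 CPM in WT and at 4695 and 6039 CPM in Z/Z (-0.73 ± 0.32 in tuft-like cells, adjusted p = 0.579). *Spib* was at 184 to 218 CPM in the tuft-like cells of all 4 libraries.

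Of 26 paralogs of the members 24 were tested, of which 2 were called higher and 4 lower in Z/Z TECs (median 0.10). These 6 of 24 are close to the 22.4% of all genes called, and 0 were called with shared barcodes left out. The 6 were *Rgs4* (2.95), *Gnai2* (0.83), *Rgs16* (-2.01), *Gnb4* (-1.96), *Vil1* (-1.29) and *Rgs1* (-3.79). These paralogs are a chosen list and not whole gene families, and *Vil1* was the only paralog listed for *Avil*. Among those listed, the highest in TECs was *Gnai2* for *Gnat3*, *Gnb1* for *Gnb3*, *Plcb4* for *Plcb2* and *Trpm3* for *Trpm5*. It was *Dclk2* for *Dclk1*, *Pou2f1* for *Pou2f3* and *Rgs5* for *Rgs13*. In tuft-like cells edgeR called 0 genes in each of these lists, with 4 taste partners, 8 paralogs, 7 eicosanoid, 3 type 2 and 20 regulator or structural genes tested, and 9 of these genes had an unadjusted p under 0.05. DESeq2 called 1 taste partner, *Rgs21*.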

How the data were processed

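The authors depleted CD45+ cells with magnetic beads, sorted the rest and made 10x 3' libraries. The labels name the v2 kit while the methods name v3 for libraries made at one site, so the kit version of these libraries is uncertain. They deposited UMI counts per gene and cell from Cell Ranger 7.0.1 (build GRCm38/mm10), with intronic reads included, as filtered and unfiltered matrices. Per the file headers, sequencing saturation, exonic and transcriptome mapping are given in percent by library (saturation 65.2% to 95.2%). No cell annotation was used, so cell types were rebuilt here and names may differ from the study's.

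Cells with at least 1000 genes and under 20% mitochondrial UMIs were kept, 9846 of 13981. Scrublet's own threshold marked 2, 4, 2 and 5 cells, so the highest-scoring 3.9% per library, the multiplet rate given by the labels, were removed in its place (59, 18, 181 and 141 cells). Clustering used scanpy 1.11.5 with leidenalg 0.10.2 (3500 variable genes, 45 components for TECs, 20 neighbours, resolution 1) and left out 224 genes: the members, the pathway lists and the markers. Raw UMIs were summed per library and cell group, and CPM was computed from these sums. Z/Z was tested against WT (2 libraries each) with edgeR 4.0.16 (R 4.3.3), with DESeq2 1.42.0 as an alternative, and genes with an adjusted p under 0.05 were called. Libraries held 8468086 to 50705511 UMIs in called cells. Poisson and Clopper-Pearson intervals (95%) cover counting error only. Counts were simulated with the same fixed dispersion of 0.05 for every gene, which was not fitted to these libraries. On them, 88.4% of 4-fold and 23.4% of 2-fold changes were recovered in TEC sums. The shares were 87.8% and 20.2% in tuft-like sums and 92.8% and 13.1% in TECs outside the tuft-like cluster. Genes that vary more between libraries would be recovered less often. For differences between cell groups the recovered shares were 59% and 4%.

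The members and lists were chosen with earlier results of these data known. All 10 members are named, with at most the 6 called genes of smallest p of each list. The highest listed paralog of a member and the 12 genes most like the members are named too. The comparisons of genotype differences between cell groups, and the fits without the aaTEC2-like cluster, were chosen after seeing the data. Intronic reads were counted, and genes that overlap a member on the opposite strand are named in the text. Promoter sequences of *Pou2f3*, *Gnb3*, *Il25* and *Alox5ap* were not used here.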

Additional observations from a re-analysis of the deposited data

Results flagged for a closer look

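The genotype difference of *Dclk1* went opposite ways in TECs outside the tuft-like cluster and in fibroblasts, and the test of that difference gave 2.26 ± 0.25 (log2, SE, edgeR adjusted p = 0.00146). The value was 1.93, 2.52, 2.11 and 2.43 with WT 1, WT 2, Z/Z 1 and Z/Z 2 left out in turn. It was called without the aaTEC2-like cluster (1.27, adjusted p = 0.0235). No such fit was made with shared barcodes left out. *Dclk1* in TECs outside the tuft-like cluster lost its call in that setting. For *Pou2f3* the difference between these cell groups was -2.06 ± 0.49 (adjusted p = 0.0299), and it was not called without WT 1 (-1.65, adjusted p = 0.114) or without Z/Z 1 (-1.44, adjusted p = 0.291). Summed fibroblast markers in TECs outside the tuft-like cluster were at 125, 103, 228 and 255 CPM in WT 1, WT 2, Z/Z 1 and Z/Z 2, with 1 of 6 markers in at least 20% of these cells, and their part in both results was not tested.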

How the results depend on the processing

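With 2 pools per genotype, 7 tuft-like cells in each of 2 libraries and depths that differ, the counts of calls moved widely, and the cause was not tested. Members called in TEC sums (4) came to 0 with shared barcodes left out, 7 with cells thinned and 0 to 5 without single libraries. Outside the tuft-like cluster (2) they came to 1 with the replicate block, 0 with no doublet removal, 0 with shared barcodes left out, 1 without the aaTEC2-like cluster and 0 to 1 without single libraries. In fibroblasts (1) they came to 2 with no filter and 0 without any library, and for the difference between TECs and fibroblasts (2) they came to 3 with no filter and 1 to 2 without single libraries.

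The replicate numbers do not pair the libraries, which share only a number: same-numbered libraries' deviations correlated at -0.088 in TEC sums, 0.032 in tuft-like sums, -0.087 outside them, -0.037 in fibroblasts and -0.007 in endothelial cells. The replicate block gave 6 members in TEC sums, and of all genes 2547 (main 4231) in TEC sums, 66 (main 0) in tuft-like sums and 363 (main 211) in endothelial cells, with 3 paralogs (main 6) in TECs and 1 taste partner (main 0) in tuft-like cells.

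Of all genes, 1 was called in TEC sums and 0 outside the tuft-like cluster (main 4039) with shared barcodes left out, and 0 genes in each pathway list. With each shared barcode kept once, 1953 genes were called higher and 2250 lower in TEC sums. Outside the tuft-like cluster these were 1813 and 2202. Without single libraries the counts ran from 593 to 4136, from 680 to 4400, from 74 to 468 in endothelial cells, from 9 to 149 in fibroblasts (main 417) and from 0 to 211 in tuft-like cells. No filter gave 724 in endothelial cells, 1319 in fibroblasts and 204 in tuft-like cells, where DESeq2 gave 19 and thinning 2. In TECs, eicosanoid genes (5) came to 8 with thinning, taste partners (4) to 2 without the aaTEC2-like cluster, and with no filter regulators (10) to 16 and type 2 genes (7) to 11. Without single libraries these lists ran from 4 to 5, 1 to 3, 2 to 10 and 2 to 8, and paralogs from 1 to 8. In tuft-like cells, no filter gave 1 paralog, 1 taste partner and 1 type 2 gene, DESeq2 1 taste partner, and leaving out libraries 0 to 1, 0 to 2 and 0 to 1.

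The tuft-like share difference (-5.95 points) was -6.83 with no doublet removal and -6.48 to -5.41 without single libraries, and that of TECs with at least 3 members -6.07 to -4.68. Not thinned, share differences were -3.09 (*Alox5ap*), -5.03 (*Gnb3*), -5.87 (*Plcb2*), -10.6 (*Pou2f3*), -6.05 (*Rgs13*) and, reversed, 0.923 (*Avil*).

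Log2 fold changes of single genes reversed as follows; where leaving out 1 library did so, the value at the other end of the range over libraries is given too. In TEC sums *Dclk1* was -0.025 with shared barcodes left out and -0.41 without the aaTEC2-like cluster, and *Cd24a* -0.42 with thinning. In tuft-like cells thinning gave *Trpm5* -0.25, *Plcb2* 0.50, *Avil* -0.20, *Pou2f3* 0.51 and *Rgs13* -0.17. Shared barcodes left out, which removes 4 of the 7 tuft-like cells of WT 2, gave *Gnat3* 0.35, *Plcb2* 0.080, *Dclk1* -0.10 and *Rgs13* -0.18. No doublet removal gave *Gnat3* 0.14 and *Plcb2* 0.14. *Gnat3* was 0.45 without WT 2, 0.19 without Z/Z 2 and -0.45 without WT 1, *Avil* and *Il25* were -0.20 and -0.30 without Z/Z 2 and 0.67 and 1.80 without Z/Z 1, and *Gnb3* -0.40 without WT 1, 0.61 without WT 2, -0.020 by DESeq2 and -0.039 with no filter. Outside the tuft-like cluster *Gnb3* was 1.35 without WT 1, -0.12 without WT 2, -1.12 without Z/Z 2, -0.19 with the block and -0.73 with shared barcodes left out, *Plcb2* -2.78 without Z/Z 2, 1.09 without WT 2 and 0.58 without Z/Z 1, and *Rgs13* -0.038 with no doublet removal. Of the other values, 241 counts and shares stayed near their main value, and 78 moved further. Among single-gene values, 726 kept their direction and side of the threshold. With the direction kept, 118 lost their call and 18 gained one.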
